A study of Mus musculus with 4 samples.

Results

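Caveolae are flask-shaped pits of the plasma membrane, and the genes described here encode the proteins that build them together with a repair protein of the muscle membrane. The set holds the caveolins Cav1, Cav2 and Cav3, the cavins Cavin1, Cavin2, Cavin3 and Cavin4, and dysferlin (Dysf), and every probe set annotated to exactly 1 of these symbols was taken. That rule gave 13 probe sets for 8 genes out of 45037 probe sets and 18193 genes, and 12 of the 13 were bright enough to be tested. Cav1, Cav3, Cavin3, Cavin4 and Dysf had 1 probe set each, Cav2 had 2, and Cavin1 and Cavin2 had 3 each.

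The arrays come from C2C12, a mouse myoblast line whose cells fuse into myotubes after serum is reduced. In the shLSD1 group (2 arrays) the cells stably carried a plasmid for a hairpin RNA against LSD1, the histone demethylase encoded by Kdm1a, and in the shControl group (2 arrays) they carried a non-targeting hairpin. The cells of both groups were selected with hygromycin (750 ug/mL), switched to 2% horse serum, and harvested after 48 hours of differentiation. For all arrays the culture conditions also list 25 mM glucose and 10% fetal bovine serum. The comparison asks which transcripts differ in differentiating myoblasts when LSD1 is reduced. The sources used here describe 1 stable selection for each hairpin, so differences between the selected populations and the knockdown cannot be told apart. They do not say whether the 2 arrays of a group are separate cultures, so the p-values reflect array-to-array spread that may be technical only.

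Caveolins are hairpin-shaped membrane proteins that oligomerise and bind cholesterol, and cavins form the peripheral coat that stabilises the pit. Cav1 and Cav2 act in many cell types, whereas Cav3 and Cavin4 are the muscle members. Cavin1 is needed for caveolae to form. Dysferlin, a calcium-binding protein, takes part in resealing the torn sarcolemma and associates with caveolin-3, and mutations of the human genes for caveolin-3 and dysferlin cause muscle disease.

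Values are MAS5 signals, which have a linear scale and are comparable between arrays for 1 probe set but not between probe sets. The median signal of an array lay between 67.1 and 69.4, and probe sets with a mean log2 signal above 6.03 (a signal of 65.4) were tested with limma. A probe set was called at a Benjamini-Hochberg adjusted p under 0.05 over all 22518 tested, and a fold change is the log2 difference of shLSD1 minus shControl. Kdm1a was low on both shLSD1 arrays: its probe set 1426761_at read 301 and 367 on them, against 1842 and 1912 on the shControl arrays (log2 fold change -2.50, SE 0.11; limma adjusted p = 1.59e-05). The other Kdm1a probe set, 1426762_s_at, measured -2.23 (SE 0.07; limma adjusted p = 9.32e-06). Only 4 arrays were available, which limits the precision.

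The muscle members fell, and Cavin2 and Cavin3 rose. Cav3 and Cavin4 fell in shLSD1 cells to 59.8% and 67.9% of the shControl level, while Cavin2 and Cavin3 rose to 154% and 138% by their representative probe sets. Cav1, Cav2 and Dysf did not pass the test, and Cavin1 passed it with 1 of its 2 tested probe sets. In all, 7 of the 12 tested member probe sets were called, of which 5 rose and 2 fell, and their median log2 fold change was 0.26. Over all tested probe sets 11.3% were called, of which 6.2% rose and 5.06% fell as shares of all, and the median was 0.0028. With 1 representative probe set per gene, 2 of the 8 members rose and 2 fell (median 0.03). The same count over 10793 tested genes called 14.3%, 7.95% up and 6.37% down (median 0.0037). In these bulk samples, fewer cells of a type and less RNA per cell cannot be told apart.

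**Figure D1:**
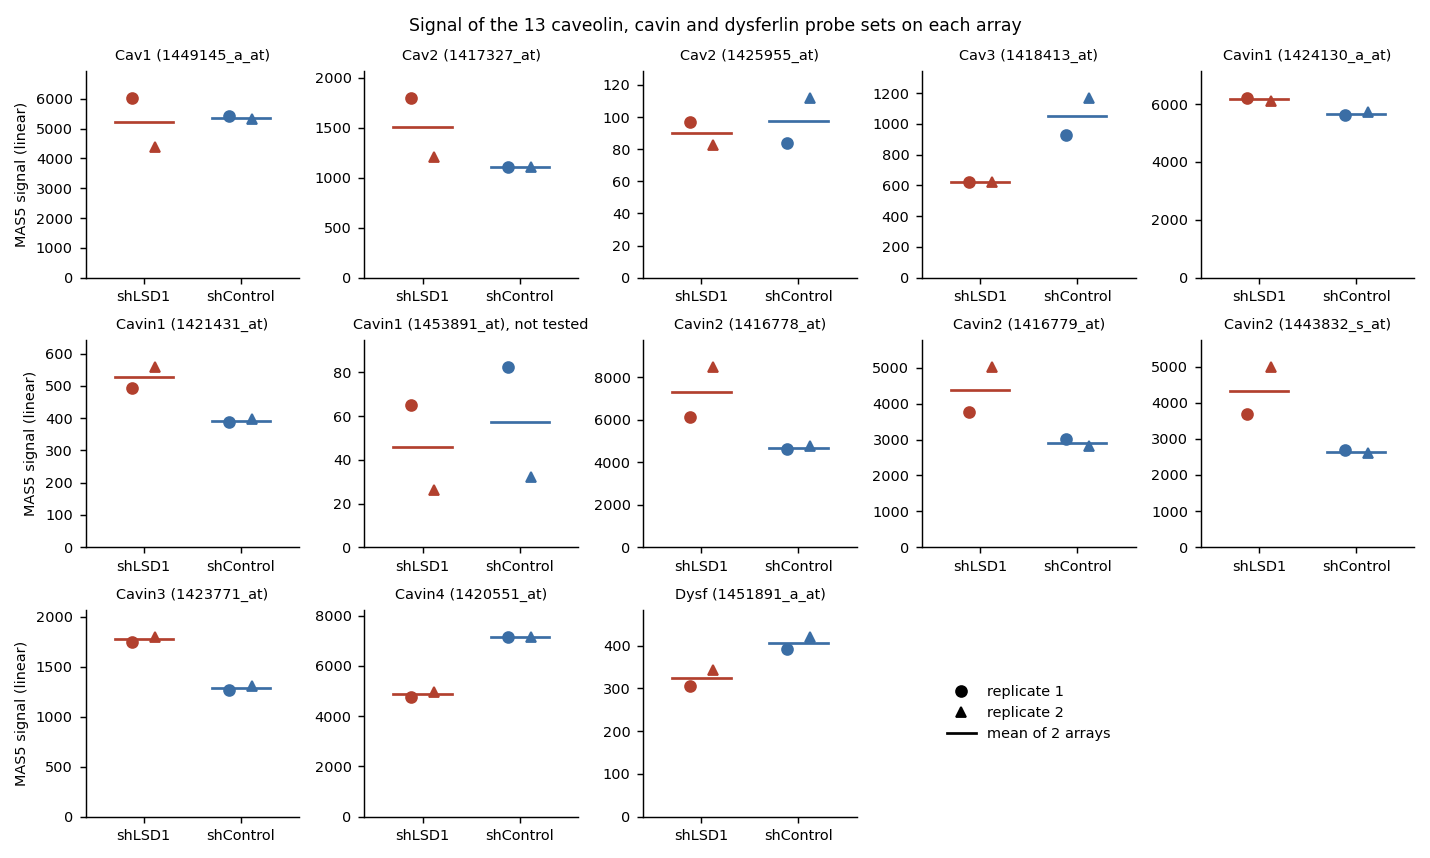
MAS5 signal (linear scale, from 0) of each of the 13 member probe sets, with the shLSD1 arrays at the left and the shControl arrays at the right of each panel. Points are arrays, horizontal lines are means of 2 arrays, and the panels for Cav3, Cavin4, Cavin3 and the Cavin2 probe sets show groups that do not overlap, as do those for Cav2 (1417327_at), Cavin1 (1424130_a_at and 1421431_at) and Dysf.

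**Figure D2:**
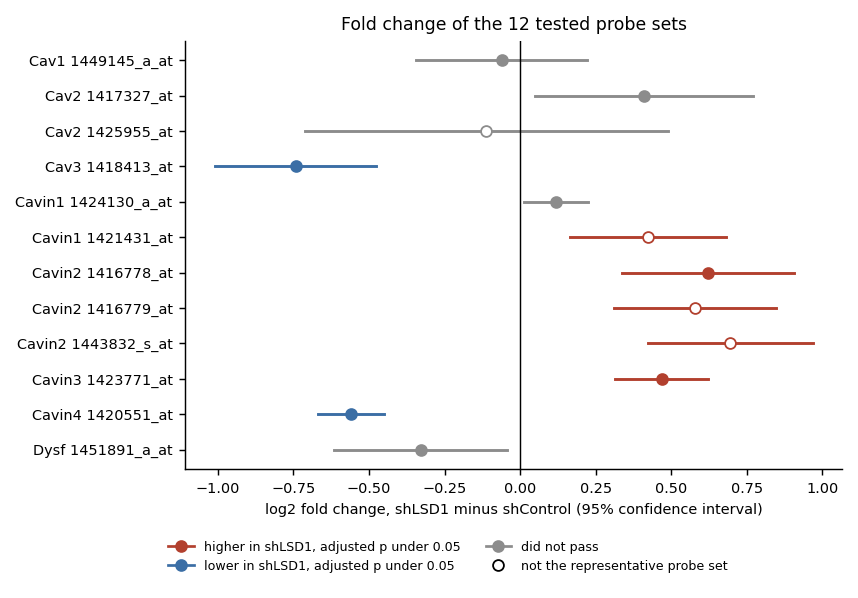
Log2 fold change of the 12 tested probe sets, shLSD1 minus shControl, with 95% confidence intervals from limma. Red marks the 5 probe sets that rose, blue the 2 that fell and grey the 5 that did not pass, and open symbols are probe sets that do not represent their gene.

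Cav3, the muscle caveolin of the sarcolemma and the developing T-tubule, had the largest fall of the set. Its signal was 621 and 625 on the shLSD1 arrays, against 928 and 1171 on the shControl arrays. Both shLSD1 arrays lay below both shControl arrays, and the shLSD1 arrays were nearly equal while the shControl arrays differed by 0.34 on the log2 scale. On the log2 scale the difference was -0.74 (SE 0.12, 95% confidence interval -1.01 to -0.48; limma adjusted p = 5.47e-03).

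Cavin4, the muscle cavin, had 4766 and 4960 on the shLSD1 arrays, against 7158 and 7158 on the shControl arrays. Among tested probe sets of similar signal, 0.18% had a smaller difference between shControl arrays, so that pair's SD is no measure of spread. The groups did not overlap, with means of 4863 ± 137 in shLSD1 and 7158 ± 0.37 in shControl cells (SD, n = 2 each). It fell by 0.56 on the log2 scale (SE 0.05, 95% confidence interval -0.67 to -0.45; limma adjusted p = 3.71e-04), the smallest adjusted p among the members. Leaving out 1 array leaves a group of 1, which is then assumed to vary like the pair of the other group, so such fits are no replicate check. Under that assumption the calls of Cav3 and Cavin4 stayed with any 1 of the 4 arrays left out.

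Because Cav3 and Cavin4 are the members that fell, the 250 bases before their annotated start sites are shown, with those of Cavin2, the member that rose most, for contrast. Capitals mark matches to the E-box CANNTG, the letters that basic helix-loop-helix factors such as MyoD recognise. The sequences are from RefSeq (build GRCm38.p6), all on the + strand: Cav3 at chr6:112459255-112459504, Cavin4 at chr4:48663264-48663513 and Cavin2 at chr1:51288876-51289125.
Cav3: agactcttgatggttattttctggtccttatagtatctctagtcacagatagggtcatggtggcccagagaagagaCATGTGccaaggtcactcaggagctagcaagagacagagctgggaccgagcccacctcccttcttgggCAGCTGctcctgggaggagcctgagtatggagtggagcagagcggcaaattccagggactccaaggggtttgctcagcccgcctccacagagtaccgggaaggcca
Cavin4: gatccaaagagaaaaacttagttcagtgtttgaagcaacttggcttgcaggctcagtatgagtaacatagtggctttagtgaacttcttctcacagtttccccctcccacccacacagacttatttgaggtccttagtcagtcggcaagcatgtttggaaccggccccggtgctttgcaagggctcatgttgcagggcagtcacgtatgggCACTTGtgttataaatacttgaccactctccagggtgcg
Cavin2: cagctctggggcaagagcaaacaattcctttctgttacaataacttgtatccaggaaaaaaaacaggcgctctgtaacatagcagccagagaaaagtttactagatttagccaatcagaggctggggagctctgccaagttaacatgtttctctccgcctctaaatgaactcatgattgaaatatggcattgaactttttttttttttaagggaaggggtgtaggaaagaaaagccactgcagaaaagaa

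The Cav3 window held 2 E-box matches, beginning 174 and 106 bases before the start, and the nearer one reads CAGCTG. Cavin4 had 1 E-box match 39 bases before the start and a TATAAA match on the gene's strand 30 bases before it. Among the other members a Cav1 window held TATAAA on the opposite strand, 221 bases before the start. No E-box letters were found in the Cavin2 window. Both strands were searched over the whole window, so the shares below are not those of a match on 1 strand near the start. CAGCTG is itself a form of CANNTG. Of 32851 such windows over all genes, 66.2% held an E-box, 13% held CAGCTG and 12.4% held TATAAA, so an E-box match alone is common. Among the other members that had an entry, Cav2 held 2 E-box matches, each of the 2 Cav1 windows held 1, and the windows of Cavin1 and Dysf held none. The CArG box, the site of serum response factor, matched in no member window and in 1.47% of all windows. The M-CAT letters CATTCC, which TEAD factors recognise, matched once in each Cavin1 window, in no other member's window, and in 12.6% of all windows. The Cavin1 windows overlap almost fully, and their matches are the same site. The GC content was 56% for Cav3, 48.8% for Cavin4 and 40.4% for Cavin2, against a median of 52.4% over all windows.

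Cavin2, a phosphatidylserine-binding coat protein that helps to bend the membrane, rose with each of its 3 probe sets. The representative, 1416778_at, had 6127 and 8468 on the shLSD1 arrays, against 4631 and 4738 on the shControl arrays. Every shLSD1 value lay above every shControl value, and the same held for the other probe sets. On the log2 scale the rises were 0.62 (SE 0.12; limma adjusted p = 0.0155) for 1416778_at, 0.58 (SE 0.12; limma adjusted p = 0.0162) for 1416779_at and 0.70 (SE 0.12; limma adjusted p = 8.27e-03) for 1443832_s_at. The annotation gives 1416778_at and 1416779_at the same source accession, so they are not independent measurements. The shLSD1 arrays disagreed on the size of the rise: with shLSD1 replicate 1 left out it was 0.79 to 0.91, and with shLSD1 replicate 2 left out 0.37 to 0.48. With a shControl array left out, the spread comes from the shLSD1 pair alone. All 3 calls were then lost, without shControl replicate 1 (limma adjusted p = 0.0538 to 0.0981) and without shControl replicate 2 (limma adjusted p = 0.0597 to 0.110). With no filter on dim probe sets, 1443832_s_at was the 1 that stayed called.

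Cavin3, the cavin that binds protein kinase C delta, had 1751 and 1801 on the shLSD1 arrays, against 1264 and 1304 on the shControl arrays. The groups were separate and each pair of arrays was close, with means of 1776 ± 35.5 in shLSD1 and 1284 ± 28.8 in shControl cells (SD, n = 2 each). It rose by 0.47 on the log2 scale (SE 0.07, 95% confidence interval 0.31 to 0.62; limma adjusted p = 3.52e-03). With 1 array left out, under the same assumption of equal spread, the fold change ranged between 0.44 and 0.49 and the call stayed.

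Cavin1, the coat protein on which caveola formation depends, was higher in shLSD1 cells by both tested probe sets, of which 1 passed. The bright representative, 1424130_a_at, had 6222 and 6102 on the shLSD1 arrays, against 5627 and 5721 on the shControl arrays. Its groups did not overlap, but the difference of 0.12 (SE 0.05, 95% confidence interval 0.01 to 0.23) did not pass (limma adjusted p = 0.146). The dimmer probe set 1421431_at had 495 and 558 on the shLSD1 arrays, against 388 and 396 on the shControl arrays. It measured 0.42 (SE 0.11; limma adjusted p = 0.0476), just inside the threshold, and this call was lost without shLSD1 replicate 2, with either shControl array left out, with no filter, and with quantile normalization or median centring. The remaining probe set, 1453891_at, lay below the signal filter, with 65.2 and 26.3 on the shLSD1 arrays and 82.4 and 32.3 on the shControl arrays.

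Cav1, the principal caveolin outside muscle, had 6039 and 4389 on the shLSD1 arrays, against 5432 and 5312 on the shControl arrays. The shControl values lay between the shLSD1 values. The difference of -0.06 (SE 0.12) had a 95% confidence interval that runs from -0.34 to 0.22 (limma adjusted p = 0.805) and spans 0. Its sign depended on the array: it was -0.29 without shLSD1 replicate 1 and 0.17 without shLSD1 replicate 2, each a single shLSD1 array against the shControl pair.

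Cav2, which forms hetero-oligomers with caveolin-1, had 1802 and 1210 on the shLSD1 arrays, against 1113 and 1110 on the shControl arrays, by its representative probe set 1417327_at. Both shLSD1 arrays were higher, replicate 1 by far the more. The difference of 0.41 (SE 0.16, 95% confidence interval 0.05 to 0.77) did not pass (limma adjusted p = 0.140). By single shLSD1 arrays it was 0.12 without replicate 1 and 0.70 without replicate 2. The other Cav2 probe set, 1425955_at, was close to the signal filter, with 97.1 and 82.6 on the shLSD1 arrays and 83.6 and 112 on the shControl arrays, and overlapped (limma adjusted p = 0.836).

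Dysf had 305 and 343 on the shLSD1 arrays, against 393 and 421 on the shControl arrays. The shLSD1 arrays were both lower, but the difference of -0.33 (SE 0.12, 95% confidence interval -0.61 to -0.04) did not pass (limma adjusted p = 0.137). Non-overlap of 2 against 2 arrays is frequent in these data. It was seen for 10 of the 12 tested member probe sets, 7 with shLSD1 above and 3 with shLSD1 below, against 55.6% of all tested probe sets, 28.3% with shLSD1 above and 27.3% with shLSD1 below.

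The arrays of the shLSD1 group differed from each other more for some members than for others. The log2 signal on shLSD1 replicate 2 minus that on replicate 1 was -0.46 for Cav1 and -0.57 for Cav2 (1417327_at), and 0.42 to 0.47 for the Cavin2 probe sets. Among tested probe sets in the same signal class (10 equal classes of mean log2 signal), 99.2% had a smaller difference than Cav1, 99.1% a smaller one than Cav2, and 98.4% to 99.3% a smaller one than the Cavin2 probe sets. Among all tested probe sets, which include dimmer and noisier ones, these shares were 91.1% for Cav1, 94.8% for Cav2 and 89.0% to 91.4% for Cavin2. On the shControl arrays the differences were -0.03 for Cav1, -0.0040 for Cav2 and -0.10 to 0.03 for Cavin2, but 0.34 for Cav3, more than for 97.2% of its class and 86.2% of all tested. Cav3, Cavin3 and Cavin4 differed by 0.0085 to 0.06 between the shLSD1 arrays. The 3' to 5' signal ratio of the Gapdh control probe sets, a measure of RNA integrity, was 0.782 and 0.774 on the shLSD1 arrays, against 0.765 and 0.755 on the shControl arrays. For Actb it was 1.19 and 1.16 on the shLSD1 arrays, which enclose the 1.18 and 1.18 on the shControl arrays.

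**Figure D3:**
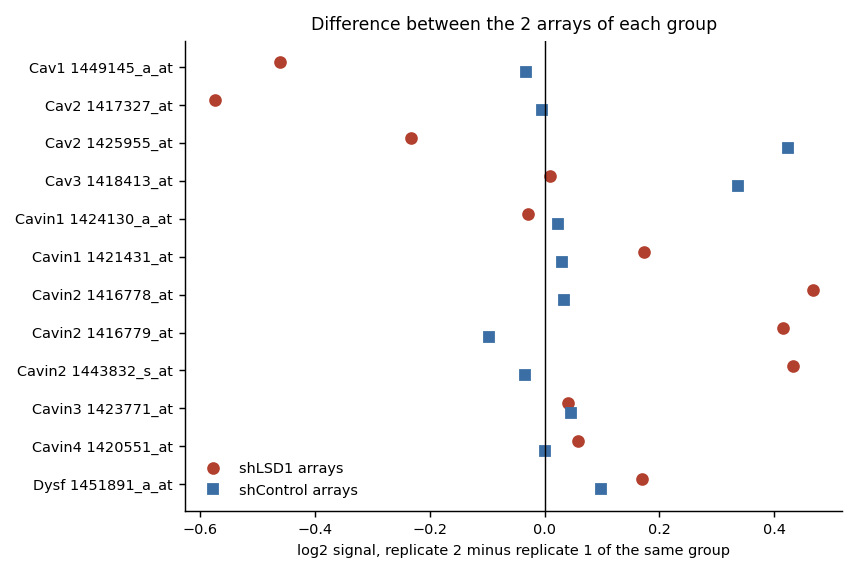
Difference in log2 signal between the 2 arrays of a group, replicate 2 minus replicate 1, for each tested member probe set, with shLSD1 arrays as red circles and shControl arrays as blue squares. Cav1 and Cav2 (1417327_at) lie at -0.46 and -0.57 and the Cavin2 probe sets at 0.42 to 0.47 in the shLSD1 group.

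**Figure D4:**
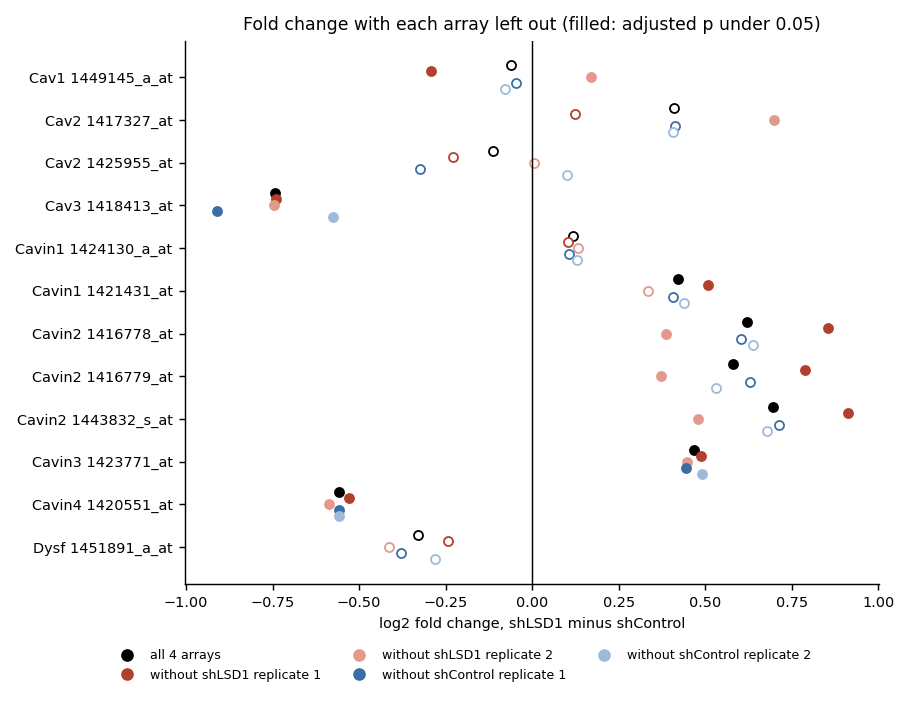
Log2 fold change of each tested member probe set with all 4 arrays and with each array left out in turn, which leaves 1 array in that group, filled where the limma adjusted p is under 0.05. Cav3, Cavin3 and Cavin4 stay filled throughout, Cav1 changes sign between the shLSD1 arrays, and the Cavin2 probe sets are open when either shControl array is left out.

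The calls depended on the variance model. When limma's prior variance was not allowed to follow the signal, 0 of the 12 member probe sets passed (8 had an unadjusted limma p under 0.05), with the smallest adjusted p 0.0665 for Cavin4, and calls over all tested probe sets numbered 212, against 2535.

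C2C12 is a muscle line, and all of its myoblast and myotube markers lay above the filter. Among 10 such genes there were 7 falls and 1 rise (median -0.49), against 6.37% down and 7.95% up over all tested genes. Troponin T3 (Tnnt3) measured -0.83, embryonic myosin heavy chain (Myh3) -0.64 and myogenin (Myog) -0.61, and each fell, while the early factor gene Myf5 rose by 1.28. The summed signal of the 10 markers was 93681 and 103273 on the shLSD1 arrays, against 135842 and 133513 on the shControl arrays. These sums are set mainly by the brightest genes, and Myf5 is a small part of them. The 7 markers that fell moved in the same direction as Cav3 and Cavin4, Myf5 moved the other way, and Myod1 (-0.17, limma adjusted p = 0.347) and Des (-0.09, limma adjusted p = 0.312) did not pass. Their part in the changes of the members was not tested. Cell types rich in caveolae other than muscle fibres were checked too. All 8 endothelial markers, Pecam1 and Cdh5 among them, lay below the filter, with signals of 1.03 to 109 and sums of 192 and 248 on the shLSD1 arrays, against 190 and 168 on the shControl arrays. Tek had the highest shLSD1 signals of these markers and was the largest part of the shLSD1 sums. It read 66.9 and 109 on the shLSD1 arrays, against 27.8 and 26.4 on the shControl arrays, without overlap. With no filter it measured 1.66 (limma adjusted p = 0.112). In that fit Esam measured 0.86, Kdr -0.76 and Emcn -1.28, each without overlap, and none passed (limma adjusted p = 0.610, 0.544 and 0.574). For the other endothelial markers the groups overlapped. Of 6 measured adipocyte markers 5 were below the filter, with signals of 1.77 to 51.4. The sixth was Pparg (-0.39, limma adjusted p = 0.428), and the sums were 178 and 158 on the shLSD1 arrays, against 165 and 191 on the shControl arrays. No array had a marker at 0. Of 6 smooth muscle markers, 4 were below the filter, Myh11 among them, Synpo2 fell by 0.55, and Smtn measured -0.22 (limma adjusted p = 0.214). Both are also expressed in striated muscle, and the sums were 3132 and 4191 on the shLSD1 arrays, against 4806 and 4620 on the shControl arrays. These sums are set mainly by Synpo2 and Smtn. Cnn1, the gene for calponin-1, went the other way: it read 80.6 and 167 on the shLSD1 arrays, against 13.7 and 12.8 on the shControl arrays. It lay below the filter through its low shControl signals, and in the fit with no filter its log2 difference was 3.13 (limma adjusted p = 0.0280). In that fit the other dim smooth muscle markers also had positive differences, Myh11 0.81, Lmod1 0.60 and Kcnmb1 1.96. None of those passed (limma adjusted p = 0.740, 0.646 and 0.394). The part of these markers in the changes of the members was not tested.

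Of 6 tested genes that act at the caveola neck and coat, 1 passed by its representative, against 14.3% of all tested genes. This was the gene for EHD2, an ATPase that holds caveolae at the surface: Ehd2 had 2643 and 2422 on the shLSD1 arrays, against 2122 and 1936 on the shControl arrays, and rose by 0.32 (limma adjusted p = 0.0262). Its other 3 tested probe sets measured -0.01 to 0.07 and did not pass. The Ehd2 call was lost without shLSD1 replicate 1, with either shControl array left out and with no filter. Pacsin3, the muscle syndapin, measured -0.32 by its representative (limma adjusted p = 0.0980), whereas its other 2 probe sets fell by 0.48 and 0.50. Ehd3 measured 0.26 (limma adjusted p = 0.162) and Ehd1 0.14 (limma adjusted p = 0.294). The median of the 6 was 0.07.

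In the list of ferlins, annexins and other membrane repair genes, which surrounds dysferlin, there were 6 rises and 1 fall among 12 tested (median 0.17). Over all tested genes 7.95% rose and 6.37% fell. Those that rose include the annexin genes Anxa4 (0.48; limma adjusted p = 1.23e-03), Anxa7 (0.31), Anxa6 (0.24) and Anxa1 (0.20), which encode calcium-dependent membrane-binding proteins. Anxa4 had 5758 and 5580 on the shLSD1 arrays, against 4206 and 3952 on the shControl arrays, and its other 2 probe sets rose as well. The gene that fell was Capn3 (-0.48; limma adjusted p = 0.0269), which encodes the muscle calpain and was picked out for naming with its value known. With shControl replicate 1 or replicate 2 left out, 1 gene of this list was called. The other ferlin genes with a probe set, Myof, Otof, Fer1l4 and Fer1l6, and the repair gene Trim72 lay below the filter by their representatives.

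Caveolin-3 and dysferlin also take part in forming T-tubules. The 14 tested T-tubule and triad genes gave 3 falls and 1 rise (median -0.23), against 6.37% down and 7.95% up over all tested genes. The calcium release channel gene Ryr1 fell by 0.55 (1723 and 2115 on the shLSD1 arrays, against 2718 and 2874 on the shControl arrays; limma adjusted p = 8.51e-03). Jph1, whose protein ties the T-tubule to the sarcoplasmic reticulum, fell by 0.53, and Cacng1, a calcium channel subunit gene, by 0.25. The other tested probe set of Ryr1 measured -0.42 (limma adjusted p = 0.163) and that of Jph1 -0.19 (limma adjusted p = 0.572), and neither passed. Triadin (Trdn) rose by 0.79 by its representative (limma adjusted p = 2.87e-03), but its other 3 probe sets measured -0.17 to 0.35 and did not pass. Without shLSD1 replicate 2 the list had 7 calls, and without shControl replicate 1 or 2 it had 2 and 1.

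Other membrane scaffolds and signalling proteins that bind caveolins were also counted, beside 14.3% called over all tested genes (7.95% up, 6.37% down). Of 7 tested flotillin and stomatin-family genes, Flot1 was the 1 that passed, at 0.27 (limma adjusted p = 0.0306), and it was lost with median centring, with no filter, and with either shControl array left out. Erlin2 measured -0.19, Stoml1 0.12 and Erlin1 0.11, with limma adjusted p of 0.271, 0.483 and 0.505, and the list median was 0.05. The 15 tested receptors and signalling proteins that bind caveolins gave 2 rises and 2 falls (median 0.02). The growth factor receptor genes Egfr and Pdgfrb fell by 0.80 and 0.75. One of the other 4 Egfr probe sets had the opposite sign, and none of those 4 passed. The TGF-beta receptor gene Tgfbr1 rose by 0.33, and Prkcd, the gene for the kinase that binds cavin-3, by 0.36 (limma adjusted p = 0.0493). Without shControl replicate 1 this list had no call and without shControl replicate 2 it had 1.

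**Figure D5:**
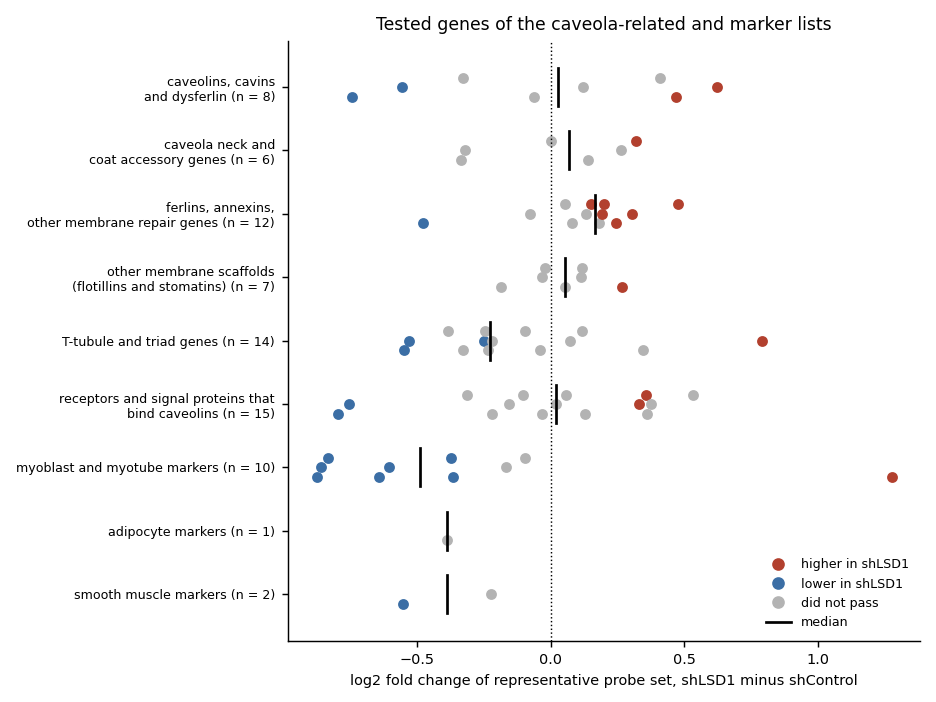
Log2 fold change, shLSD1 minus shControl, of the representative probe set of each tested gene in the member set, the 5 caveola-related lists and the marker lists with tested genes. Red points rose, blue points fell, grey points did not pass, and black bars are medians, at -0.49 for myoblast and myotube markers and 0.03 for the members.

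The genes with the most similar profile to each member were found by the distance between log2 signals over the 4 arrays, each centred on its own mean, among 10793 representative probe sets. Nearest to Cav3 were Pcdh18 (distance 0.07) and H2bc18 (0.11), and nearest to Cavin4 were Deptor (0.03) and Mthfd2 (0.03). Rab3il1 (0.07) and Ccnd2 (0.09) lay nearest to Cavin2, and Emp3 (0.03) and Ston2 (0.03) to Cavin3. For Cav1 these were Capn15 (0.02) and Hoxa11 (0.03), for Cav2 2310047K21Rik (0.04) and Col18a1 (0.05), for Cavin1 Septin10 (0.0067) and Flii (0.01), and for Dysf Mypn (0.02) and Brwd1 (0.03). Over 4 arrays in 2 groups many genes share a profile, and no other member was among these.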

How the data were processed

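RNA of 4 C2C12 samples was measured on Affymetrix 3' expression arrays. Per the submitters' processing notes, the deposited signal intensities come from MAS5 and Affymetrix Expression Console, with versions not given in the sources used here. Per the labels' protocols, 250 ng of total RNA was labelled per array. The 2% trimmed mean of every deposited array was 500.003, so the authors had scaled each array by 1 factor, which does not remove differences in distribution shape, and low MAS5 signals scatter widely after taking logs.

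From these values, 64 control probe sets were left out, signals under 1 were set to 1 (503 to 704 per array) and log2 was taken. GEO's platform annotation gave 1 symbol for 34945 of 45037 probe sets, several for 932 and none for 9160. Checked through gene IDs against GRCm38.p6, 0 symbols changed. A gene's representative is a probe set without an _s_at or _x_at suffix where one exists, then the brightest. Probe sets above the median mean log2 signal were fitted with limma 3.58.1 (lmFit, then eBayes with the prior variance following mean signal; 8.26 degrees of freedom in total; R 4.3.3). Tests were two-sided and adjusted by the Benjamini-Hochberg method. Above that filter the fit was not reduced to 1 probe set per gene, because the members are all probe sets of their genes. After the fit to the arrays, the method was tested on simulated data under more than 1 model of the spread. A first simulation gave an excess of false calls. Its spread was a running mean that wrapped from the brightest to the dimmest probe sets, and the excess was gone with the same running mean without the wrap and with spread drawn from limma's own fitted prior. That prior is the model limma assumes, so a simulation from it is no independent check, and the acceptance criterion was applied to it alone.

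The genes named are the members, Kdm1a, from each list the tested genes of lowest adjusted p (at most 4), and the 2 genes nearest to each member. Capn3, Tes, Met, Myod1, Des, Tek, Cnn1 and the untested genes named lie outside that rule and were chosen after their values were seen. The members and the 9 lists (5 of caveola-related genes, 4 of markers) were chosen with earlier results of these data known, and the promoter windows printed, the motifs searched and the look at differences between arrays of a group were chosen after the members' values had been seen. Of the 8 members, 7 had a promoter entry, and Cavin3 is named only. In the 15 alternatives, 1 array at a time was left out, the replicate number was added as a block, arrays were median-centred or quantile-normalized, an offset of 32 was added before log2, the filter was dropped or raised (to log2 8.91), the variance prior was flat or robust, genes had 1 probe set each, or the threshold was 0.01 or 0.10. Same-numbered arrays of the groups did not deviate together (correlation 6.27e-04), and the labels give no shared origin, so the numbers were not treated as pairs. Figures were drawn with matplotlib 3.10.9.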

Additional observations from a re-analysis of the deposited data

How the results depend on the processing

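Across the 15 alternatives, 142 of 173 values of the tested member probe sets kept their direction and their side of the threshold. Of the rest, 25 lost a call, 3 gained one with the same sign, and 3 changed sign, whatever their side of the threshold. Alternatives that alter only the block, filter, variance prior, probe sets per gene or threshold leave the fold change as it was, so no sign could change there. At a threshold of 0.10 no call could be lost. The count of 142 is therefore no measure of stability. Cav3, Cavin3 and Cavin4 kept their calls under every alternative except the fit without an intensity trend (limma adjusted p = 0.0975, 0.0799 and 0.0665). With 1 array left out, Cav1 ranged between -0.29 and 0.17 and Cav2 probe set 1425955_at between -0.32 and 0.10. Their sign changed for Cav1 without shLSD1 replicate 2 and for that Cav2 probe set without shLSD1 replicate 2 (0.0047) or shControl replicate 2. With 1 probe set per gene, 8 member probe sets were tested and 4 (2 up) were called, the same calls as for the representatives in the main fit. The member count of 7 (5 up, 2 down) among 12 was 4 (2 up) with no filter and at a threshold of 0.01, and 0 (0 up, 0 down) without the trend. With 1 array left out it ranged between 3 and 8 (1 to 6 up, 2 to 3 down). With robust variance, Cavin2 probe set 1416778_at lost its call (limma adjusted p = 0.0690). Over all probe sets, 2535 calls became 1555 with no filter, 212 without the trend, 1650 with 1 probe set per gene, 1025 at 0.01 and 3934 at 0.10, and 888 to 3242 with 1 array left out. The calls in the lists for the caveola neck and coat, membrane repair, membrane scaffolds, T-tubule and caveolin-binding proteins were 1, 7, 1, 4 and 4. They were 0, 0, 0, 0 and 0 without the trend, and 0, 2, 0, 2 and 1 at 0.01. With no filter the first 4 lists had 0, 3, 0 and 2. Median centring left 0 calls among the scaffolds, and the neck and coat list had 2 at 0.10. With 1 array left out they ranged between 0 and 2, 1 and 7, 0 and 1, 1 and 7, and 0 and 6. With an array left out, its group of 1 was assumed to vary like the other group. With no filter, p-values were adjusted over more probe sets, and with 1 probe set per gene over fewer (10793, against 22518). The cause of these changes was not tested. With the replicate block, Cav2 probe set 1417327_at passed at 0.41 (limma adjusted p = 0.0227), the neck and coat list had 2 calls, and no other member call changed. Kdm1a kept its call under every alternative. Signals near the filter, such as Cav2 probe set 1425955_at, limit what can be seen there.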

Other observations

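Cav2 and Cav1 lie next to each other on mouse chromosome 6, between the protein-coding genes Tes and Met, and this neighbourhood was looked at after the member values had been seen. Tes, which encodes a focal adhesion protein, rose with both of its tested probe sets, by 0.37 (SE 0.06; limma adjusted p = 4.98e-03) and 0.49 (SE 0.07; limma adjusted p = 3.24e-03). Its representative had 3219 and 3393 on the shLSD1 arrays, against 2557 and 2556 on the shControl arrays. Met, which encodes the receptor of hepatocyte growth factor, rose by 0.58 (SE 0.08; limma adjusted p = 2.42e-03), with 1444 and 1352 on the shLSD1 arrays, against 951 and 914 on the shControl arrays, and its dimmer probe set measured 0.45 (limma adjusted p = 0.209). The shLSD1 arrays were close for these outer genes, at 0.08 for Tes and -0.09 for Met by their representatives, whereas they were -0.57 apart for Cav2 and -0.46 apart for Cav1.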
